A study of Phyllostachys nigra with 21 samples.

Results

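The photosynthetic carbon fixation genes were taken as all genes whose KEGG annotation in the deposited table lists the pathway named Carbon fixation in photosynthetic organisms. This gave 193 of the 42460 genes, of which 155 were expressed enough to be tested, at 1 FPKM or more in at least 3 libraries. FPKM is a fragment count scaled to gene length and to the total of the library. The 38 untested members had mean FPKM of at most 0.402 over all libraries. By their descriptions, 73 members (62 tested) were Calvin cycle enzymes and 62 (51 tested) were C4-type enzymes. Of the other 58 members (42 tested), 37 (30 tested) carried the name of such an enzyme only through their KEGG orthology (KO) number, and 21 (12 tested) were described as another protein. The members covered 22 enzymes. The large subunit of Rubisco, a gene of the chloroplast genome in plants, was not among them.

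In the Calvin cycle, Rubisco joins CO2 to ribulose-1,5-bisphosphate, phosphoglycerate kinase and glyceraldehyde-3-phosphate dehydrogenase (GAPDH) use ATP and NADPH from the light reactions to reduce the product to triose phosphate, and the remaining enzymes turn triose phosphate back into the acceptor. Several steps also exist as cytosolic enzymes of glycolysis and gluconeogenesis, which KEGG lists in the same pathway. The C4-type enzymes capture and release CO2 as C4 acids in C4 plants, whereas in C3 grasses such as bamboo they serve organic acid, amino acid and pyruvate metabolism, and in some stems they act on carbon brought by the transpiration stream.

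The 21 libraries came from culms of black bamboo, P. nigra, in 7 groups of 3. LT1d, LT15d, and LT25d were culms of plants held at 4 °C for 1, 15, and 25 days, RT1d, RT15d, and RT25d were culms held at 25 °C for the same times, and CK was sampled before treatment. All plants were potted ones from field rhizomes, kept in a greenhouse until their immature green culms were treated, and the labels do not give which plant each library came from, so p-values measure only the spread between these libraries. Reads were mapped to the genome of a related species, moso bamboo (P. edulis), and gene numbers and scaffold positions are those of its assembly. In bulk culm tissue, fewer cells of a type and less RNA per cell cannot be told apart.

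Total counts ranged between 33957497 and 50338658 per library. The members together took 0.986% to 1.72% of all FPKM, with LT1d libraries at 0.990% to 1.07%, against 1.52% to 1.72% in RT1d libraries. The spread among replicates was uneven. Over 100 members the median coefficient of variation was 3.40% in LT15d, 4.23% in LT25d, and 4.44% in RT15d, and between 13.1% and 24.8% in the other 4 groups. The spread of these 3 groups may be technical, and p-values that rest on it, on Day 15 and Day 25, may be too small. RT25d replicate 1 and CK replicate 1 stood below their groups in photosynthetic genes. Several results on members that rest on them are given without them as well, whereas lists of genes outside the pathway are given with all libraries only. Of the tissue markers, genes of chlorophyll a-b binding proteins, which mark green tissue, were abundant in most groups (27 genes, summed FPKM up to 1728), whereas the markers listed for secondary wall (3 cellulose synthase genes, at most 6.22 FPKM in sum), phloem (2 genes, at most 15.7 FPKM), and endodermis (4 genes, at most 3.42 FPKM) were low in all 21 libraries.

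On Day 1 at 4 °C most Calvin cycle genes with a chloroplastic product fell, several of them to a small fraction of their 25 °C level, while PEP carboxykinase (PEPCK), a chloroplastic malate dehydrogenase, and several malic enzyme genes rose. A gene was called differentially expressed (DEG) where edgeR's quasi-likelihood test over 29913 genes gave an adjusted p (Benjamini-Hochberg) no higher than 0.05 with a change of 2-fold or more. In LT1d against RT1d, 26 members were higher and 60 lower of 155, beside a background of 44.2% of all genes tested (20.8% higher and 23.4% lower). The median log2 fold change was -0.65 over the members and -0.06 over all genes. Under scaling by library size only, the all-gene median moved to -0.53 and the split of the members to 21 higher and 83 lower. The edgeR scaling factors set LT1d apart from RT1d, so that a Day 1 fold change is less negative than the ratio of the FPKM values beside it, by about that shift.

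**Figure D1:**
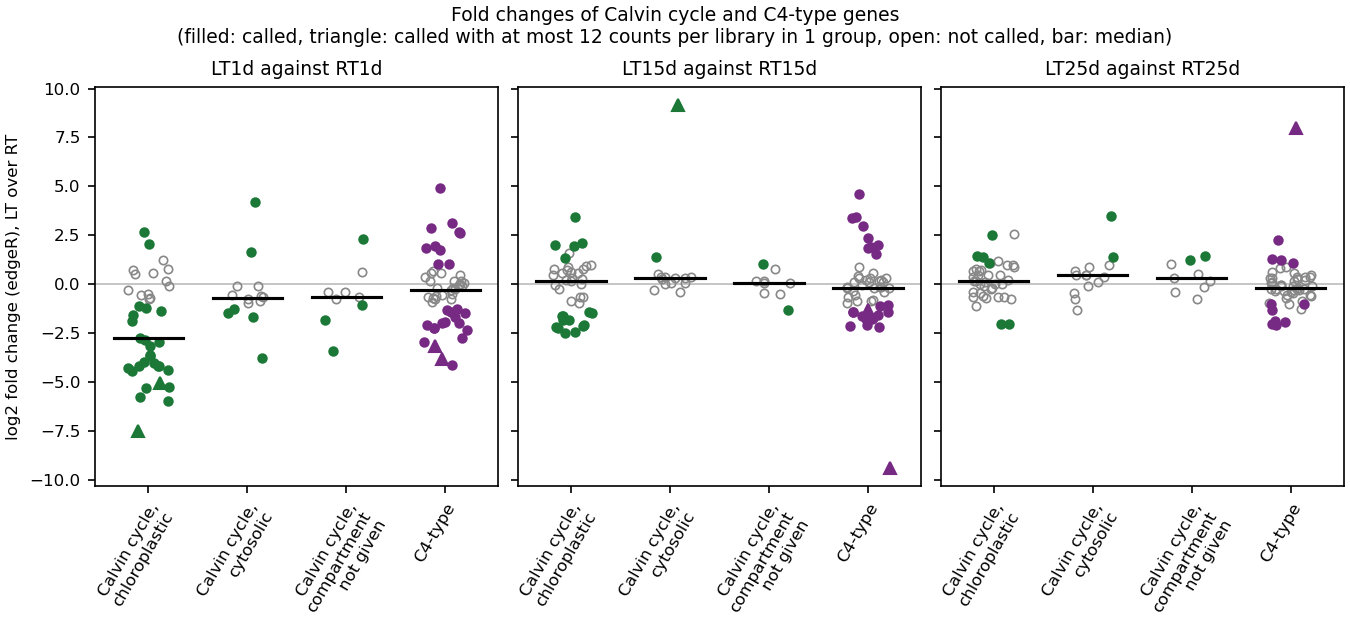
Log2 fold change of each tested Calvin cycle and C4-type gene in LT1d against RT1d, LT15d against RT15d, and LT25d against RT25d (y axis, edgeR, LT over RT). Filled points are DEGs, triangles are DEGs with at most 12 counts per library in 1 of the 2 groups, open points are not called, and bars are medians. On Day 1 the chloroplastic Calvin cycle genes lie lowest, with a median of -2.74.

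The lowest median was that of the chloroplastic enzymes. Of the 62 Calvin cycle genes, 5 were higher and 32 lower (median log2 fold change -1.10). The 39 genes taken as chloroplastic, by description or as 1 of the 6 Rubisco small subunit genes, had 2 higher and 25 lower (median -2.74). They include 2 NAD-dependent GAPDH genes described as chloroplastic, 1 of which was higher. The 14 described as cytosolic had 2 higher and 4 lower (median -0.72, or 2 and 10 under scaling by library size only). Summed over the 39 chloroplastic genes, FPKM was 640.5, 877, and 774 in the LT1d libraries, against 2938, 3434, and 2951 in the RT1d libraries. The 2 groups did not overlap. With these genes moved the chlorophyll a-b binding protein genes, all 23 of the tested ones being lower on Day 1 (median -5.57). Their summed FPKM was 29.7, 17.6, and 24.9 in LT1d libraries, against 1569.9, 1728, and 1312 in RT1d libraries, and the part of this in the Calvin cycle result was not tested.

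Rubisco small subunit genes (RbcS) encode the small chain of the CO2-fixing enzyme. Their 6 genes summed to 89.6, 220.2, and 156 FPKM in LT1d libraries, against 1004, 1410.4, and 1218 FPKM in RT1d libraries. The 4 abundant genes fell and a scarce one, PH02Gene24740, was called higher (2.65), a call lost under scaling by library size only (2.16). PH02Gene30287 (scaffold 11, 21339557 to 21341085), the most abundant of them, had 59.0, 158, and 111 FPKM in LT1d libraries, against 421, 564, and 431 FPKM in RT1d libraries. The fall of PH02Gene30287 was log2 fold change -1.58 ± 0.46, adjusted p = 0.00626. It was the mildest among the 4, with the neighbouring PH02Gene30282, picked after its values were seen, at 9.78, 20.9, and 14.2 FPKM in LT1d libraries, against 329, 515, and 508 FPKM in RT1d libraries (log2 fold change -4.38 ± 0.55, adjusted p = 2.27e-06). These 2 genes lie 5 gene numbers apart on scaffold 11. RbcS genes are near-identical copies in grasses and how reads with several possible origins were counted is not stated, so the division of reads among them is uncertain.

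Photosynthetic GAPDH, the NADP-dependent enzyme of the reducing step, had the lowest median log2 fold change of the 22 enzymes on Day 1 (-4.72). The 4 genes summed to 3.92, 5.48, and 6.13 FPKM in LT1d libraries, against 204, 258, and 182 FPKM in RT1d libraries, a ratio of means of 41.4. All 4 were called lower. The GAPDH A gene PH02Gene02213 (scaffold 24, 40982264 to 40984252) had 1.36, 1.12, and 1.93 FPKM in LT1d libraries, against 81.4, 97.9, and 63.4 FPKM in RT1d libraries, and fell with log2 fold change -5.25 ± 0.64, adjusted p = 1.49e-06. The second GAPDH A gene, PH02Gene10057, had 0.787, 0.702, and 0.776 FPKM in LT1d libraries, against 60.5, 81.6, and 62.9 FPKM in RT1d libraries, with log2 fold change -5.96 ± 0.73, adjusted p = 1.65e-06. No LT1d library reached the lowest RT1d library in either gene.

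Sedoheptulose-1,7-bisphosphatase (SBPase) and phosphoribulokinase (PRK), enzymes of the regenerating part that have no role in glycolysis, fell as well. SBPase gene PH02Gene11392 (scaffold 14, 70961996 to 70965041) had 1.81, 5.04, and 3.01 FPKM in LT1d libraries, against 80.0, 91.8, and 64.7 FPKM in RT1d libraries (log2 fold change -4.05 ± 0.72, adjusted p = 8.82e-05). PRK gene PH02Gene03788 (scaffold 3, 85599385 to 85601723) had 1.69, 3.71, and 2.13 FPKM in LT1d libraries, against 55.7, 77.1, and 68.8 FPKM in RT1d libraries (log2 fold change -4.21 ± 0.65, adjusted p = 1.95e-05). In both, the highest LT1d library was more than 10 times below the lowest RT1d library. Both SBPase genes and 2 of the 3 tested PRK genes were called lower.

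**Figure D2:**
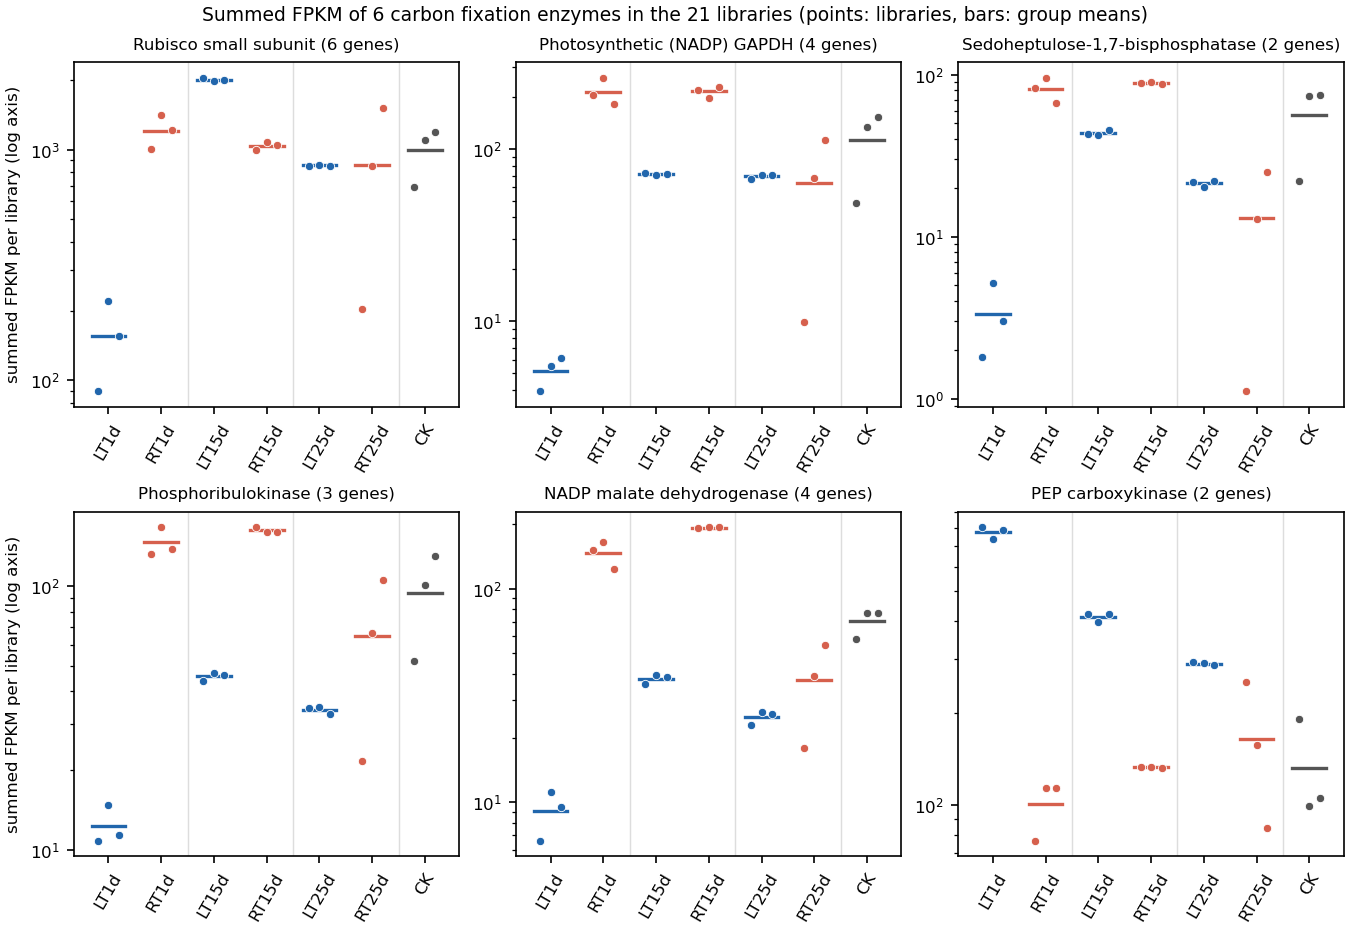
Summed FPKM of the tested genes of 6 enzymes in each of the 21 libraries (y axis, log scale), by group (x axis). Points are libraries and bars are group means, with LT in blue, RT in red, and CK in grey. In LT1d libraries photosynthetic GAPDH lies between 3.92 and 6.13 FPKM, against 182 to 258 in RT1d libraries, while PEP carboxykinase lies between 735 and 806 FPKM, against 76.7 to 114.

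Several enzymes exist in both compartments, and their genes are given by compartment. Fructose-1,6-bisphosphatase (FBPase) removes a phosphate from fructose-1,6-bisphosphate, in the chloroplast for the cycle and in the cytosol for sucrose synthesis. Its 2 chloroplastic genes were both lower (median -3.74) and averaged 2.59 ± 1.85 FPKM in sum in LT1d, against 38.1 ± 4.45 in RT1d (SD, n = 3 each). Its most abundant cytosolic gene, PH02Gene24076, had 137, 102, and 119.6 FPKM in LT1d libraries, against 53.8, 58.9, and 51.9 FPKM in RT1d libraries and rose (log2 fold change 1.64 ± 0.25, adjusted p = 1.56e-05). For phosphoglycerate kinase, 4 of 5 chloroplastic genes fell (median -4.00), whereas of 6 cytosolic genes 1 rose and the median was -0.60. The most abundant chloroplastic one, PH02Gene42166, picked after its values were seen, had 1.96, 2.12, and 2.08 FPKM in LT1d libraries, against 66.6, 71.9, and 54.7 FPKM in RT1d libraries (log2 fold change -4.44 ± 0.47, adjusted p = 2.74e-07). The chloroplastic gene that was not called, PH02Gene02303, likewise picked, had 16.2, 18.7, and 21.3 FPKM in LT1d libraries, against 20.1, 19.2, and 17.8 FPKM in RT1d libraries. For fructose-bisphosphate aldolase, 5 of 6 chloroplastic genes fell (median -3.92). The most abundant aldolase gene, PH02Gene09444, described as aldolase C-1 without a compartment, was not called on Day 1, Day 15, or Day 25. With the other aldolase gene described without a compartment it summed to 174 ± 4.73 FPKM in LT1d, against 233 ± 37.6 FPKM in RT1d (SD, n = 3 each). The median log2 fold change of these 2 genes on Day 1 was 0.095. The most abundant cytosolic phosphoglycerate kinase gene, PH02Gene34323, averaged 39.9 ± 1.29 FPKM in LT1d, against 113 ± 14.4 FPKM in RT1d (SD, n = 3 each), and its log2 fold change of -0.97 lay just inside the 2-fold limit (-1.44, and called, under scaling by library size only). Of the cytosolic phosphoglycerate kinase genes, 4 have consecutive numbers on scaffold 17, and reads shared among such copies cannot be assigned with certainty.

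Among the chloroplastic aldolases, 4 genes described as fructose-bisphosphate aldolase fell with log2 fold changes between -5.78 and -3.65. PH02Gene17733 (scaffold 2, 35799924 to 35804051) was the most abundant of them, with 3.85, 8.25, and 7.74 FPKM in LT1d libraries, against 149.5, 207, and 161 FPKM in RT1d libraries (log2 fold change -4.18 ± 0.50, adjusted p = 1.2e-06). The 2 genes described as aldolase 3, PH02Gene38568 and PH02Gene13241, picked after their values were seen, had log2 fold changes of -0.57 and -1.36. PH02Gene38568 had 47.2, 46.9, and 50.3 FPKM in LT1d libraries, against 123, 90.2, and 96.1 FPKM in RT1d libraries and was not called, whereas PH02Gene13241 was. The phosphoglycerate kinase gene PH02Gene21019, whose gene model is described as chloroplastic, had between 0 and 2 counts in the LT1d libraries, against 7.57 to 9.25 FPKM in the RT1d libraries, and is given no fold change.

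Transketolase, which moves 2-carbon units between sugar phosphates, had 0 of 3 genes called (2 at an unadjusted p under 0.05, and 0 called by DESeq2), and its main gene PH02Gene14490 had 150.4, 155, and 156 FPKM in LT1d libraries, against 152, 145, and 152 FPKM in RT1d libraries. Triosephosphate isomerase had 2 of 9 genes lower, and ribulose-phosphate 3-epimerase 3 of 5 lower. The main epimerase gene, PH02Gene37765, had 52.6, 59.8, and 55.1 FPKM in LT1d libraries, against 162, 128, and 119 FPKM in RT1d libraries, and its log2 fold change of -0.76 was not called. The main cytosolic triosephosphate isomerase gene, PH02Gene28763, had 76.3, 72.2, and 68.9 FPKM in LT1d libraries, against 219, 190.0, and 153 FPKM in RT1d libraries and a log2 fold change of -0.85, called only under scaling by library size alone and in the limma fits on FPKM. Ribose-5-phosphate isomerase had genes in both directions. PH02Gene46975, described as isomerase 2, had 80.1, 55.7, and 64.9 FPKM in LT1d libraries, against 10.1, 14.5, and 33.3 FPKM in RT1d libraries (log2 fold change 2.30 ± 0.45, adjusted p = 0.000226). The chloroplastic isomerase 3 gene PH02Gene08753 had 10.4, 14.7, and 13.2 FPKM in LT1d libraries, against 46.2, 32.8, and 39.5 FPKM in RT1d libraries and fell (log2 fold change -1.10 ± 0.20, adjusted p = 0.000117), a call that was lost without LT1d replicate 1 (-0.95) or without RT1d replicate 1 (-0.98).

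NAD-dependent GAPDH, the glycolytic form, had 2 genes higher and 3 lower of 9 on Day 1. Its most abundant gene, PH02Gene12335, had 338, 293, and 304 FPKM in LT1d libraries, against 774, 752, and 633 FPKM in RT1d libraries, and its log2 fold change of -0.68 was not called. The next 2 genes were picked after their values were seen. PH02Gene37164, which has no compartment in its description, had 16.7, 34.9, and 24.5 FPKM in LT1d libraries, against 480.2, 368, and 328 FPKM in RT1d libraries and fell (log2 fold change -3.41 ± 0.33, adjusted p = 1.1e-07). PH02Gene28516, described as GAPCP1, the plastid form of the glycolytic enzyme, had 67.1, 117, and 91.6 FPKM in LT1d libraries, against 35.6, 23.0, and 38.0 FPKM in RT1d libraries and rose (log2 fold change 2.04 ± 0.31, adjusted p = 1.7e-05). Within the plastid the photosynthetic GAPDH genes and this gene thus changed in opposite directions, with groups that did not overlap in either.

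Of the 51 C4-type genes tested on Day 1, 10 were higher and 17 lower (median log2 fold change -0.31), shares of 19.6% and 33.3% beside 20.8% and 23.4% of all genes. PEPCK, which releases CO2 from oxaloacetate to form phosphoenolpyruvate and opens gluconeogenesis, had the highest median log2 fold change of the 22 enzymes (3.90). Its 2 genes summed to 806, 735, and 789 FPKM in LT1d libraries, against 76.7, 114, and 114 FPKM in RT1d libraries. PH02Gene32562 (scaffold 21, 89348569 to 89354022) had 433, 431, and 447 FPKM in LT1d libraries, against 63.7, 95.5, and 97.1 FPKM in RT1d libraries (log2 fold change 2.88 ± 0.30, adjusted p = 2.52e-07). PH02Gene35891 (scaffold 15, 56738192 to 56743794) had 373, 304, and 341 FPKM in LT1d libraries, against 13.0, 18.0, and 16.7 FPKM in RT1d libraries (log2 fold change 4.93 ± 0.45, adjusted p = 5.48e-08). The LT1d and RT1d libraries were far apart in both genes.

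Malate dehydrogenase, which interconverts malate and oxaloacetate, divided by cofactor and compartment. The chloroplastic NADP-dependent enzyme, which exports reducing power as malate, had 3 of 4 genes lower. Its main gene PH02Gene36806 (scaffold 13, 94709073 to 94712964) had 2.64, 6.79, and 5.53 FPKM in LT1d libraries, against 132, 142, and 108 FPKM in RT1d libraries (log2 fold change -4.14 ± 0.42, adjusted p = 1.74e-07). Of the 16 NAD-dependent genes 2 were higher and 7 lower, and both that rose were chloroplastic forms. PH02Gene27517 (scaffold 1728, 14942 to 17753) had 199, 229.6, and 215 FPKM in LT1d libraries, against 37.0, 25.8, and 45.1 FPKM in RT1d libraries (log2 fold change 3.10 ± 0.51, adjusted p = 4.37e-05). The other, PH02Gene08167, picked after its values were seen, had 76.5, 96.4, and 85.2 FPKM in LT1d libraries, against 19.8, 18.6, and 23.2 FPKM in RT1d libraries (log2 fold change 2.59 ± 0.39, adjusted p = 1.71e-05). The most abundant NAD-dependent gene by KO, PH02Gene20714, had 126, 132, and 129.5 FPKM in LT1d libraries, against 303, 272, and 232 FPKM in RT1d libraries and a log2 fold change of -0.53, which was not called.

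Malic enzymes release CO2 from malate to form pyruvate. Of 7 NADP-dependent genes, 4 were called higher on Day 1, and the enzyme summed to 493, 458, and 463 FPKM in LT1d libraries, against 258, 256, and 296 FPKM in RT1d libraries. The most abundant gene over all libraries, PH02Gene15331, was not among those called on Day 1. PH02Gene15331 and PH02Gene42339, described without a compartment, summed to 71.5 ± 3.0 FPKM in LT1d, against 75.5 ± 5.6 FPKM in RT1d (SD, n = 3 each). The chloroplastic gene PH02Gene08184, picked after its values were seen, had 142, 142, and 143 FPKM in LT1d libraries, against 49.4, 54.5, and 65.9 FPKM in RT1d libraries (log2 fold change 1.85 ± 0.37, adjusted p = 0.000292). Of 6 mitochondrial NAD-dependent genes only PH02Gene14884 was called. PH02Gene14884 had 44.8, 46.3, and 44.6 FPKM in LT1d libraries, against 34.0, 32.6, and 30.4 FPKM in RT1d libraries (log2 fold change 1.01 ± 0.11, adjusted p = 6.39e-07), and the call was lost under scaling by library size only (0.54), without LT1d replicate 2 (0.97), or without RT1d replicate 3 (0.98). Pyruvate phosphate dikinase (PPDK), which regenerates phosphoenolpyruvate out of pyruvate, was carried almost wholly by PH02Gene27627, a gene that is assigned to PPDK by its KO. PH02Gene27627 had 270.0, 505, and 403 FPKM in LT1d libraries, against 201, 188, and 177 FPKM in RT1d libraries and rose (log2 fold change 1.59 ± 0.33, adjusted p = 0.000458). The gene described as chloroplastic PPDK was called lower (log2 fold change -2.09). It had 3.5 ± 1.9 FPKM in LT1d, against 21.3 ± 3.9 FPKM in RT1d (SD, n = 3 each). The remaining PPDK gene, described without a compartment, was not called (-0.74).

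PEP carboxylase (PEPC), which joins bicarbonate to phosphoenolpyruvate, had 2 genes higher and 2 lower of 11. Its most abundant gene, PH02Gene37943, had 39.9, 51.1, and 48.3 FPKM in LT1d libraries, against 97.4, 82.7, and 51.3 FPKM in RT1d libraries and was not called. The scarce gene PH02Gene31990 (scaffold 14, 93090080 to 93094051) had 4.45, 4.82, and 4.65 FPKM in LT1d libraries, against 2.26, 1.73, and 1.22 FPKM in RT1d libraries (log2 fold change 1.94 ± 0.18, adjusted p = 5.95e-08). Among aminotransferases, all 3 glutamate-glyoxylate aminotransferase genes, of a photorespiratory enzyme that KEGG lists with alanine aminotransferase, were lower. PH02Gene45921 had 12.6, 20.4, and 17.6 FPKM in LT1d libraries, against 128, 147, and 104 FPKM in RT1d libraries (log2 fold change -2.37 ± 0.27, adjusted p = 8.41e-07). The main alanine aminotransferase gene, PH02Gene27199, had 30.1, 35.7, and 31.4 FPKM in LT1d libraries, against 159, 162, and 127 FPKM in RT1d libraries and fell (log2 fold change -1.68 ± 0.31, adjusted p = 0.000153). The main aspartate aminotransferase gene, PH02Gene42654, averaged 68.0 ± 6.56 FPKM in LT1d, against 121 ± 2.88 FPKM in RT1d (SD, n = 3 each), with a log2 fold change of -0.31 that was not called.

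**Figure D3:**
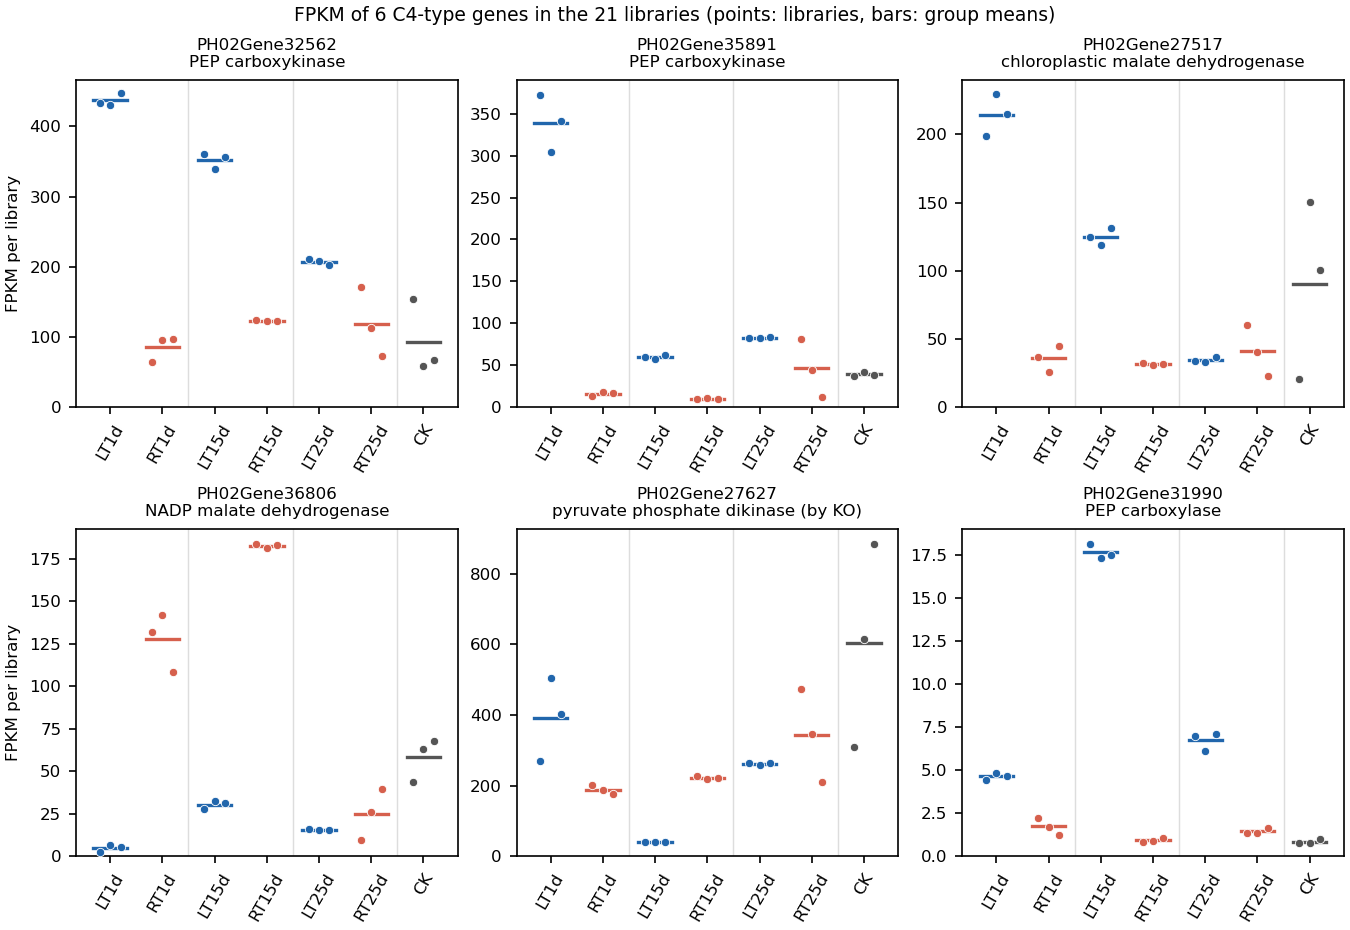
FPKM of 6 C4-type genes in each of the 21 libraries (y axis, linear from 0), by group (x axis). Points are libraries and bars are group means, with LT in blue, RT in red, and CK in grey. Both PEP carboxykinase genes are highest in LT1d, NADP malate dehydrogenase is highest in RT15d with 181 to 183 FPKM, and PEP carboxylase PH02Gene31990 is highest in LT15d with 17.3 to 18.2 FPKM.

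By Day 15 members were called in both directions, in a share near the background. In LT15d against RT15d, 27 members were higher and 36 lower of 155, beside a background of 40.1% (19.3% higher and 20.8% lower). The median log2 fold change was 0.08 over the members and -0.02 over all genes, and under scaling by library size only these were -0.27 and -0.37, with 20 members higher and 47 lower. LT15d and RT15d are groups of little spread. With LT15d, RT15d, and LT25d each summed to 1 library, the spread came from the other groups. Far fewer Day 15 calls were then left, among the members and among all genes tested. The median log2 fold change was then 0.11 over the members and 0.01 over all genes. Most Day 15 calls of members named by rule were lost. The 4 that held were PEPCK gene PH02Gene35891, PEPC gene PH02Gene31990, NADP malic enzyme gene PH02Gene15331, and malate dehydrogenase gene PH02Gene21908.

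On Day 15 the most abundant Rubisco small subunit gene was higher at 4 °C, whereas the GAPDH A genes and 2 PRK genes were lower. RbcS had 2 of 6 genes called higher and summed to 2049.6, 1986, and 1999.7 FPKM in LT15d libraries, against 999, 1077, and 1045 FPKM in RT15d libraries. Most of the difference was in PH02Gene30287, with 1393, 1355, and 1360.0 FPKM in LT15d libraries, against 433, 467, and 457 FPKM in RT15d libraries (log2 fold change 1.99 ± 0.47, adjusted p = 0.00131). Its neighbour PH02Gene30282 had 264, 260.4, and 259 FPKM in LT15d libraries, against 284, 315, and 298 FPKM in RT15d libraries and was not called. The other DEG of the enzyme on Day 15, PH02Gene24740, reached at most 1.40 FPKM in LT15d, against at most 0.331 FPKM in RT15d, and its call was lost without RT15d replicate 2 (2.88) or without RT15d replicate 3 (2.90).

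Photosynthetic GAPDH summed to 72.2, 70.1, and 71.6 FPKM in LT15d libraries, against 219, 198, and 228 FPKM in RT15d libraries, with 2 of the 4 genes called lower. These were the 2 GAPDH A genes. PH02Gene02213 had 11.7, 12.6, and 13.7 FPKM in LT15d libraries, against 93.7, 81.6, and 102 FPKM in RT15d libraries (log2 fold change -2.47 ± 0.55, adjusted p = 0.000888), and PH02Gene10057 had 17.9, 16.4, and 17.6 FPKM in LT15d libraries, against 62.1, 57.7, and 64.3 FPKM in RT15d libraries (log2 fold change -1.43 ± 0.59, adjusted p = 0.0408). The call of PH02Gene10057 was lost without any 1 of the 6 libraries. The 2 GAPDH B genes, picked after their values were seen, were not called. PH02Gene20510 had 26.3, 26.4, and 25.6 FPKM in LT15d libraries, against 23.7, 21.9, and 22.1 FPKM in RT15d libraries, and PH02Gene00850 had 16.3, 14.7, and 14.6 FPKM in LT15d libraries, against 39.9, 36.5, and 40.3 FPKM in RT15d libraries. PRK gene PH02Gene03788 had 12.7, 14.7, and 14.4 FPKM in LT15d libraries, against 80.6, 76.6, and 75.6 FPKM in RT15d libraries (log2 fold change -2.08 ± 0.58, adjusted p = 0.00478). SBPase had 0 of 2 genes called (0 at an unadjusted p under 0.05 and 0 by DESeq2), with PH02Gene11392 at 40.8, 40.7, and 43.9 FPKM in LT15d libraries, against 87.0, 88.2, and 85.4 FPKM in RT15d libraries.

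The chloroplastic aldolases went separate ways on Day 15. The 4 genes described as fructose-bisphosphate aldolase were all lower, with log2 fold changes between -2.52 and -1.61, and the call of PH02Gene35962 (-1.61), picked after its values were seen, was lost without any 1 of the 6 libraries. PH02Gene17733 had 38.2, 34.1, and 38.4 FPKM in LT15d libraries, against 278, 282, and 274 FPKM in RT15d libraries (log2 fold change -2.52 ± 0.46, adjusted p = 0.00014). Aldolase 3 gene PH02Gene38568 was higher, with 165, 159.9, and 169.9 FPKM in LT15d libraries, against 85.2, 86.6, and 89.1 FPKM in RT15d libraries (log2 fold change 1.32 ± 0.14, adjusted p = 3.26e-07), and fell just short of 2-fold under scaling by library size only (0.97). The second aldolase 3 gene, PH02Gene13241, had 109, 109.9, and 111 FPKM in LT15d libraries, against 84.1, 81.7, and 88.1 FPKM in RT15d libraries, with a log2 fold change of 0.77 that was not called. In these 2 genes every LT15d library lay above every RT15d library. The small cytosolic phosphoglycerate kinase gene PH02Gene17450 had 45 to 74 counts in LT15d libraries and none in RT15d libraries, which gives at least 6.24-fold higher with a floor of 12 counts per library (3 steps of 4 counts, the commonest low count in the table). Over the Calvin cycle genes 8 were higher and 13 lower of 62 (median log2 fold change 0.16), and over the chloroplastic ones 5 and 12 of 39 (median 0.15). Both medians were below 0 under scaling by library size only (-0.19 and -0.20). Of all genes tested 19.3% were higher and 20.8% lower on Day 15, so that the lower share of the 62 genes was near the background.

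Of the 51 C4-type genes, 9 were higher and 15 lower on Day 15 (median log2 fold change -0.18), beside 19.3% higher and 20.8% lower of all genes. The higher share was near that of all genes. PEPCK remained higher, with PH02Gene32562 at 361, 339, and 357 FPKM in LT15d libraries, against 124, 122, and 123 FPKM in RT15d libraries (log2 fold change 1.91 ± 0.29, adjusted p = 2.05e-05). PH02Gene35891 had 59.5, 57.6, and 62.6 FPKM in LT15d libraries, against 9.75, 10.9, and 9.34 FPKM in RT15d libraries (log2 fold change 2.97 ± 0.41, adjusted p = 8.49e-06). The chloroplastic malate dehydrogenase PH02Gene27517 had 124, 119, and 131 FPKM in LT15d libraries, against 32.6, 31.0, and 31.5 FPKM in RT15d libraries (log2 fold change 2.37 ± 0.50, adjusted p = 0.000509). The replicates of LT15d and RT15d did not overlap in any of these genes. NADP malate dehydrogenase PH02Gene36806 remained lower, with 27.8, 32.3, and 31.2 FPKM in LT15d libraries, against 183, 181, and 183 FPKM in RT15d libraries (log2 fold change -2.19 ± 0.38, adjusted p = 8.89e-05).

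PPDK was lower on Day 15. PH02Gene27627 had 40.8, 39.4, and 41.5 FPKM in LT15d libraries, against 226, 219, and 222 FPKM in RT15d libraries (log2 fold change -2.06 ± 0.34, adjusted p = 5.06e-05), and all 3 PPDK genes were called lower. NADP malic enzyme had 3 genes higher and 3 lower of 7. PH02Gene15331 was lower, with 27.1, 27.1, and 28.8 FPKM in LT15d libraries, against 160.3, 150.0, and 154 FPKM in RT15d libraries (log2 fold change -2.09 ± 0.16, adjusted p = 9.67e-09). PH02Gene08184, the chloroplastic form, was higher, with 113, 111, and 116 FPKM in LT15d libraries, against 13.9, 13.3, and 16.1 FPKM in RT15d libraries (log2 fold change 3.37 ± 0.40, adjusted p = 1.25e-06). PH02Gene42339 was higher from a low level, with 6.02, 5.50, and 7.14 FPKM in LT15d libraries, against 0.396, 0.856, and 1.04 FPKM in RT15d libraries (log2 fold change 3.41 ± 0.74, adjusted p = 0.000645). Genes of this enzyme thus moved in opposite directions, with groups that did not overlap.

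The largest Day 15 rise among the C4-type genes was that of PEPC gene PH02Gene31990, with 18.2, 17.3, and 17.5 FPKM in LT15d libraries, against 0.856, 0.888, and 1.08 FPKM in RT15d libraries (log2 fold change 4.62 ± 0.20, adjusted p = 2.04e-11). It lies next to PH02Gene31991, 1 of the members described as SCAR-like proteins, picked after its values were seen, which was not called on Day 15. The mitochondrial malate dehydrogenase gene PH02Gene21908 had no counts in LT15d libraries, against 57 to 128 counts in RT15d libraries, at least 6.16-fold lower with the same floor. Glutamate-glyoxylate aminotransferase PH02Gene45921 remained lower, with 34.6, 36.3, and 34.1 FPKM in LT15d libraries, against 126, 119, and 127 FPKM in RT15d libraries (log2 fold change -1.43 ± 0.27, adjusted p = 0.000166). The alanine aminotransferase gene PH02Gene44929 was lower, with 0.516, 0.373, and 0.378 FPKM in LT15d libraries, against 1.86, 1.88, and 1.89 FPKM in RT15d libraries (log2 fold change -1.73 ± 0.30, adjusted p = 8.94e-05). NAD malic enzyme had 0 of 6 genes called (2 at an unadjusted p under 0.05 and 0 by DESeq2).

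By Day 25 the share of members called was near the background again. In LT25d against RT25d, 20 members were higher and 14 lower of 155, beside a background of 24.5% (11.3% higher and 13.2% lower). The median log2 fold change was 0.11 over the members and -0.02 over all genes. RT25d replicate 1 stood apart from its group here, since RbcS summed to 204, 848, and 1523 FPKM over its 3 libraries, against 854 to 860.5 in LT25d. Without RT25d replicate 1, 25 members were higher and 19 lower, and the Calvin cycle genes moved to 11 higher and 6 lower, against 8 and 2 of 62 with it. With the low-spread groups summed, fewer Day 25 calls were left, among the members and among all genes tested. The median log2 fold change was then 0.12 over the members and -0.01 over all genes. Most Day 25 calls of members named by rule were lost, that of alanine aminotransferase PH02Gene27199 among them. The 3 that held were PEPC gene PH02Gene31990, NADP malic enzyme gene PH02Gene42339, and alanine aminotransferase gene PH02Gene44929. Under the same setting the Day 25 calls of PH02Gene08184, PH02Gene19663, PH02Gene35243, PH02Gene37164, and PH02Gene46367, which were picked after their values were seen, were lost as well.

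Photosynthetic GAPDH, SBPase, and PRK had 0 of 9 genes called on Day 25 (1 at an unadjusted p under 0.05, a PRK gene, and 0 by DESeq2). GAPDH summed to 67.2, 70.4, and 70.1 FPKM in LT25d libraries, against 9.91, 67.6, and 113 FPKM in RT25d libraries, which lay on both sides. PRK gene PH02Gene03788 had 13.1, 13.3, and 11.5 FPKM in LT25d libraries, against 4.07, 30.1, and 52.5 FPKM in RT25d libraries and was called lower only without RT25d replicate 1 (log2 fold change -1.64, against -1.13 with it). The chloroplastic Calvin cycle genes had 4 higher and 2 lower of 39 (median 0.18, or -0.02 with 4 and 5 without RT25d replicate 1). Of all genes tested 11.3% were higher and 13.2% lower, so that the higher share of the 39 genes was near the background. The 2 chloroplastic genes called lower with all libraries were aldolase genes. PH02Gene17733 had 29.4, 32.9, and 29.5 FPKM in LT25d libraries, against 29.7, 133, and 233 FPKM in RT25d libraries (log2 fold change -2.05 ± 0.45, adjusted p = 0.00134), and its LT25d libraries overlapped the lowest RT25d library. The scarce small subunit gene PH02Gene26054 was higher, with 2.72, 5.22, and 2.85 FPKM in LT25d libraries, against 0.786, 0.444, and 0.616 FPKM in RT25d libraries (log2 fold change 2.51 ± 0.75, adjusted p = 0.011).

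Of the C4-type genes 5 were higher and 7 lower of 51 on Day 25 (median log2 fold change -0.21), shares of 9.80% and 13.7% beside 11.3% and 13.2% of all genes. PEPCK had 0 of 2 genes called (2 at an unadjusted p under 0.05 and 0 by DESeq2). PH02Gene32562 had 211, 208, and 202 FPKM in LT25d libraries, against 171, 113, and 72.3 FPKM in RT25d libraries and was called only without RT25d replicate 1 (log2 fold change 1.23, against 0.83 with it). PH02Gene35891 had 81.9, 82.5, and 83.8 FPKM in LT25d libraries, against 81.4, 44.4, and 12.3 FPKM in RT25d libraries, with 1.62 without RT25d replicate 1 against 0.87 with it. In both genes the highest RT25d library was replicate 1, which was the lowest in the Rubisco small subunit.

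PEPC gene PH02Gene31990 was higher on Day 25 as on the other days, with 7.01, 6.13, and 7.11 FPKM in LT25d libraries, against 1.34, 1.35, and 1.65 FPKM in RT25d libraries (log2 fold change 2.26 ± 0.18, adjusted p = 4.73e-08). NADP malic enzyme PH02Gene42339 had 7.60, 8.61, and 7.46 FPKM in LT25d libraries, against 0.0522, 0, and 0.0297 FPKM in RT25d libraries, with 0 to 6 counts in the RT25d libraries, so that it was called higher but is given no fold change. The chloroplastic form PH02Gene08184 had 31.8, 32.8, and 35.3 FPKM in LT25d libraries, against 28.4, 15.2, and 5.15 FPKM in RT25d libraries (log2 fold change 1.06 ± 0.36, adjusted p = 0.024), a call lost without RT25d replicate 2 (0.99), RT25d replicate 3 (0.64), or LT25d replicate 3 (1.02). Alanine aminotransferase PH02Gene27199, lower on Day 1, was higher on Day 25, with 102, 96.7, and 98.4 FPKM in LT25d libraries, against 51.1, 42.9, and 29.9 FPKM in RT25d libraries (log2 fold change 1.30 ± 0.31, adjusted p = 0.00247), a call lost with the low-spread groups summed (1.31). PH02Gene44929 was lower, with 0.757, 0.627, and 0.741 FPKM in LT25d libraries, against 3.72, 2.77, and 2.59 FPKM in RT25d libraries (log2 fold change -2.04 ± 0.30, adjusted p = 2.98e-05). All 3 LT25d libraries lay outside the RT25d range in these genes.

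**Figure D4:**
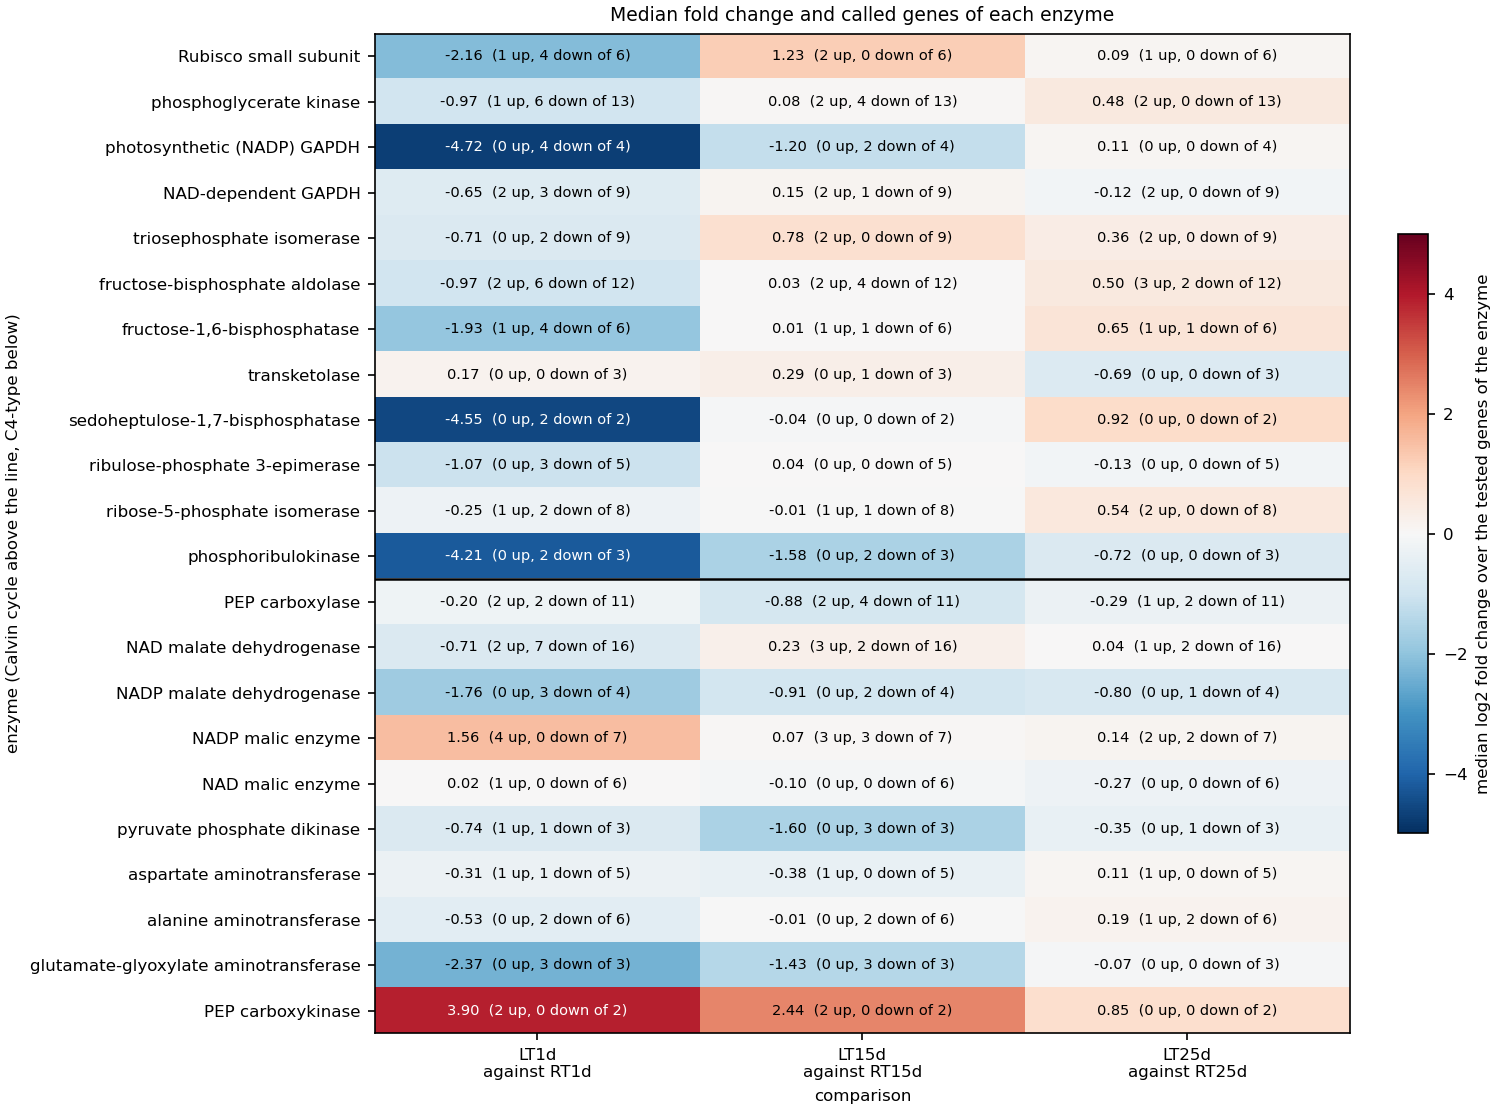
Median log2 fold change (colour and first number) of the tested genes of each enzyme (y axis) in the 3 LT against RT comparisons (x axis), with the number of DEGs higher (up) and lower (down). Under scaling by library size only, the sign of the median turns for transketolase and NAD malic enzyme on Day 1 and for several enzymes near 0 on Day 15, among them phosphoglycerate kinase, aldolase, and FBPase. Photosynthetic GAPDH moves from -4.72 on Day 1 to -1.20 on Day 15 and 0.11 on Day 25, and PEP carboxykinase from 3.90 to 2.44 and 0.85.

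The difference between 4 °C and 25 °C changed between days, as tested by interaction contrasts in the same fit. Between Day 1 and Day 15 the log2 fold change differed for 76 members (59 higher and 17 lower on Day 15), beside a background of 33.2% (17.1% higher and 16.1% lower). Far fewer members were called with the low-spread groups summed. Between Day 1 and Day 25 it differed for 85 members (66 higher and 19 lower on Day 25), beside a background of 44.9% (22.8% higher and 22.1% lower). In the chloroplastic Calvin cycle genes the second contrast was higher for 27 and lower for 1 of 39. Both PEPCK genes had a lower fold change on Day 25 than on Day 1.

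Over the 3 days 5 of the 155 members were higher each time (3.23%, beside 2.80% of all genes) and 6 were lower each time (3.87%, beside 3.59%). Another 4 were lower on Day 1 and higher on Day 25 (2.58%, beside 3.07%), 2 were the reverse (1.29%, beside 2.87%), and 46 were called on no day (29.7%, beside 35.04%). All of those named next were picked after their values were seen unless named before. The 5 higher ones were PEPC PH02Gene31990, the NADP malic enzyme genes PH02Gene08184 and PH02Gene42339, phosphoglycerate kinase PH02Gene17450, and an aldolase gene by KO, PH02Gene49397, which stayed at or below 1.83 FPKM in the Day 1 and Day 25 libraries. The Day 1 call of PH02Gene42339 and the Day 25 call of PH02Gene17450, both at few counts in the RT libraries, were each lost without any of 4 libraries among the 6. The 6 lower ones were the chloroplastic aldolases PH02Gene17733 and PH02Gene46367, mitochondrial malate dehydrogenase PH02Gene21908, PEPC gene PH02Gene19663, FBPase gene PH02Gene31700 by KO, and alanine aminotransferase gene PH02Gene33772 by KO. PH02Gene46367, an aldolase, had 19.4, 20.2, and 21.1 FPKM in LT25d libraries, against 13.0, 86.0, and 157 FPKM in RT25d libraries on Day 25, so that RT25d replicate 1 lay below its LT25d libraries, and its Day 25 call was lost without RT25d replicate 3 (-1.22, against -2.02 with it). PEPC gene PH02Gene19663 had 3.08, 2.55, and 2.64 FPKM in LT25d libraries, against 5.38, 11.0, and 15.4 FPKM in RT25d libraries (log2 fold change -1.89 ± 0.32, adjusted p = 0.000134), and with the low-spread groups summed its calls on Day 15 (-1.08) and Day 25 (-1.88) were lost.

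Among the 4 genes that were lower on Day 1 and higher on Day 25 were alanine aminotransferase PH02Gene27199, aldolase PH02Gene35243, GAPDH gene PH02Gene37164, and FBPase gene PH02Gene38194 by KO. Aldolase PH02Gene35243 had 0.658, 1.26, and 1.79 FPKM in LT1d libraries, against 95.8, 116, and 81.2 FPKM in RT1d libraries (log2 fold change -5.78 ± 0.67, adjusted p = 8.55e-07). On Day 25 PH02Gene35243 had 15.3, 13.5, and 14.4 FPKM in LT25d libraries, against 0.587, 5.65, and 10.5 FPKM in RT25d libraries (log2 fold change 1.42 ± 0.55, adjusted p = 0.0435), a call lost without any 1 of the LT25d libraries or RT25d replicates 1 (0.89) or 2 (1.42). PH02Gene37164 had 27.8, 25.7, and 28.6 FPKM in LT25d libraries, against 17.5, 12.7, and 5.92 FPKM in RT25d libraries on Day 25 (log2 fold change 1.22 ± 0.31, adjusted p = 0.00383), a call lost without RT25d replicate 3 (0.89). At both temperatures these 2 genes were below their RT1d level by Day 25.

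Each treated group was also set against CK, and these 6 comparisons share the 3 CK libraries. LT1d had 19 members higher and 61 lower (background 34.0%, 14.2% higher and 19.8% lower), with 1 higher and 22 lower of the 39 chloroplastic Calvin cycle genes. LT15d had 29 higher and 39 lower (background 38.6%, 16.2% higher and 22.4% lower), and LT25d had 8 higher and 47 lower (background 28.3%, 11.3% higher and 17.0% lower). RT1d had 12 higher and 19 lower (background 22.8%, 9.19% higher and 13.6% lower), RT15d had 20 higher and 23 lower (background 25.7%, 10.4% higher and 15.3% lower), and RT25d had 6 higher and 46 lower (background 26.2%, 11.0% higher and 15.3% lower). Thus both groups of Day 25 held more members below CK than above it. Without CK replicate 1, whose RbcS sum was 690.5 FPKM against 1106 and 1200 in the other CK libraries, the number of members called was 79, 78, 64, 41, 48, and 62 in the same order. The shares called in RT1d and RT15d were near their backgrounds.

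Against CK the Calvin cycle genes had 3 higher and 31 lower of 62 in LT1d, 16 and 11 in LT15d, 1 and 13 in LT25d, 5 and 2 in RT1d, 9 and 4 in RT15d, and 1 and 17 in RT25d. The C4-type genes had 9 higher and 21 lower of 51 in LT1d, 7 and 19 in LT15d, 2 and 22 in LT25d, 3 and 10 in RT1d, 6 and 9 in RT15d, and 0 and 16 in RT25d. All genes tested also had more lower than higher in each of these comparisons, with 9.19% to 16.2% higher and 13.6% to 22.4% lower, and the C4-type shares in RT15d were near those of all genes. NAD malic enzyme, a mitochondrial enzyme, was at its highest in CK, with a summed FPKM of 137, 143, and 122 in the CK libraries and at most 85.7 in any treated library.

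Across the 7 groups LT1d was the lowest for 81 of the 155 tested members (52.3%, beside 28.9% of all genes tested, by mean FPKM), among them 29 of the 39 chloroplastic Calvin cycle genes and 18 of the 51 C4-type genes. For summed RbcS the order of group means was LT15d (2012 ± 33.5 FPKM), RT1d (1211 ± 203), RT15d (1041 ± 39.4), CK (999 ± 271), RT25d (858 ± 660), LT25d (856 ± 3.91), and LT1d (155 ± 65.3; SD, n = 3 each). Only LT15d at the top and LT1d at the bottom were separated from their neighbours in all libraries, and RT25d replicate 1, at 204 FPKM, lay within the LT1d range. For photosynthetic GAPDH, RT15d (215 ± 15.9) and RT1d (215 ± 38.9) were above CK (112 ± 56.0), LT15d (71.3 ± 1.05), LT25d (69.2 ± 1.78), and RT25d (63.4 ± 51.6), among which the libraries overlapped from each group to the next, and LT1d was lowest (5.18 ± 1.14). For PEPCK the 3 LT groups came first, LT1d (777 ± 36.9), LT15d (412 ± 13.3), and LT25d (290 ± 3.49), each separated from the next. Below them lay RT25d (165 ± 84.3), RT15d (133 ± 0.657), CK (132 ± 50.8), and RT1d (101 ± 21.3), with libraries that overlapped.

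The other C4-type enzymes were ordered differently. NADP malate dehydrogenase was highest in RT15d (193 ± 0.720 FPKM), then in RT1d (146 ± 21.3) and CK (70.5 ± 11.0), each separated from the next, and was lowest in LT1d (9.08 ± 2.29; SD, n = 3 each). LT15d, RT25d, and LT25d lay between, with libraries that overlapped from each to the next. NADP malic enzyme was highest in LT1d (472 ± 18.9 FPKM), separated from RT1d (270.2 ± 22.7), and lowest in LT25d (161 ± 3.33), which overlapped RT25d. PPDK was highest in CK (624 ± 292 FPKM) and lowest in LT15d (46.8 ± 1.13), separated from RT1d (217 ± 12.9) above it. The CK libraries of PPDK were widely spread, at 325, 638, and 909 FPKM.

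Genes around the cycle, listed by description and outside the pathway, were followed in the same fit. Rubisco activase, which frees Rubisco of inhibitory sugar phosphates, had all 5 genes lower on Day 1 and 4 lower on Day 15, and 3 higher on Day 25. Its summed FPKM was 14.2, 42.6, and 28.9 in LT1d libraries, against 1574, 1803.4, and 1213 in RT1d libraries. On Day 25 the sum was 235, 228, and 235 in LT25d libraries, against 30.1, 90.9, and 143 in RT25d libraries, with replicate 1 lowest. The main gene PH02Gene18719 (scaffold 1, 1298715 to 1301734) had 4.50, 20.3, and 12.1 FPKM in LT1d libraries, against 993, 1112, and 729.6 FPKM in RT1d libraries (log2 fold change -5.72 ± 0.51, adjusted p = 3.59e-08). On Day 15 PH02Gene18719 had 41.0, 39.7, and 41.4 FPKM in LT15d libraries, against 503, 530.1, and 519 FPKM in RT15d libraries (log2 fold change -3.27 ± 0.45, adjusted p = 7.29e-06), and on Day 25 it had 91.4, 86.8, and 90.7 FPKM in LT25d libraries, against 8.34, 18.9, and 25.6 FPKM in RT25d libraries (log2 fold change 2.40 ± 0.43, adjusted p = 0.000245). The Day 25 RT libraries were far below CK, where it had 186, 262, and 358 FPKM.

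Photorespiration recycles the product of Rubisco's reaction with oxygen. Of its 32 tested genes 1 was higher and 22 lower on Day 1 (median log2 fold change -2.43), 2 and 7 on Day 15, and 1 and 8 on Day 25. The background was 20.8% higher with 23.4% lower on Day 1, 19.3% with 20.8% on Day 15, and 11.3% with 13.2% on Day 25, so that the lower share on Day 15 (21.9%) was near it. The mitochondrial glycine dehydrogenase PH02Gene16965 had 5.69, 9.10, and 7.88 FPKM in LT1d libraries, against 95.2, 77.5, and 103 FPKM in RT1d libraries (log2 fold change -3.07 ± 0.20, adjusted p = 1.63e-09). Serine-glyoxylate aminotransferase PH02Gene07525 had 4.14, 8.07, and 6.06 FPKM in LT1d libraries, against 63.9, 108, and 88.1 FPKM in RT1d libraries (log2 fold change -3.30 ± 0.47, adjusted p = 8.99e-06). Serine hydroxymethyltransferase PH02Gene12525 was lower on Day 1 (log2 fold change -1.59 ± 0.26, adjusted p = 3.12e-05) and on Day 25 (log2 fold change -1.39 ± 0.25, adjusted p = 0.000272), when it had 45.7, 47.7, and 51.5 FPKM in LT25d libraries, against 77.9, 142, and 173 FPKM in RT25d libraries. It was the only 1 of the 5 tested genes of this enzyme called on Day 1 (median log2 fold change -0.01). On Day 15 the enzyme had 2 genes higher and 0 lower, and on Day 25 it had 0 higher and 2 lower.

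Among other helpers of the cycle, the Rubisco chaperone gene PH02Gene40208 (RbcX) was higher on Day 15, with 7.50, 6.36, and 8.10 FPKM in LT15d libraries, against 0.825, 0.809, and 0.748 FPKM in RT15d libraries (log2 fold change 3.59 ± 0.58, adjusted p = 4.43e-05). Both RbcX genes were called higher on Day 1 and on Day 15, and 1 of the 2 was lower on Day 25. On Day 1 their median log2 fold change was 2.555, at a low summed FPKM of 2.8 ± 1.4 in LT1d, against 0.7 ± 0.2 in RT1d (SD, n = 3 each). CP12, a small protein that binds GAPDH and PRK, had 2 genes higher and 4 lower of 7 on Day 1, and 3 higher and 2 lower on Day 15. PH02Gene31874 had 71.9, 76.6, and 75.3 FPKM in LT15d libraries, against 47.6, 41.6, and 45.9 FPKM in RT15d libraries (log2 fold change 1.12 ± 0.32, adjusted p = 0.00573), a call lost under scaling by library size only (0.77). Carbonic anhydrase genes, which interconvert CO2 and bicarbonate, summed to 1483, 1431, and 1462 FPKM in LT1d libraries, against 756, 706, and 731 in RT1d libraries, although 2 of the 14 tested genes were higher and 5 lower. The 2 higher ones, PH02Gene19248 and PH02Gene19249, picked after their values were seen, averaged 548 and 536 FPKM in LT1d, against 74.4 and 75.6 FPKM in RT1d. The chlorophyll a-b binding genes had 2 higher and 13 lower of 23 on Day 15 (median log2 fold change -2.48). Their summed FPKM was nevertheless above RT15d, at 1188, 1194, and 1167 in LT15d libraries, against 895, 852, and 923 in RT15d libraries. On Day 25 they had 7 higher and 0 lower (median 0.23). Their Day 25 sums were 423, 419, and 422 in LT25d libraries, against 150, 357, and 498 in RT25d libraries, with replicate 1 lowest.

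**Figure D5:**
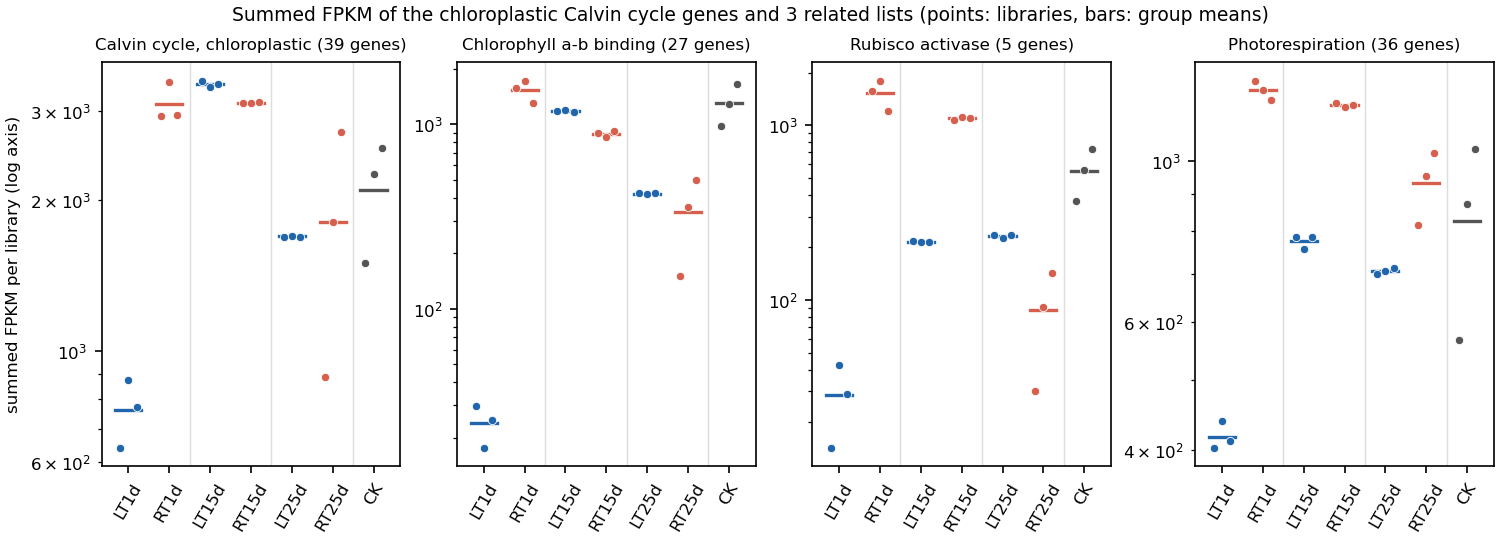
Summed FPKM (y axis, log scale) of the 39 tested chloroplastic Calvin cycle genes, the chlorophyll a-b binding protein genes, Rubisco activase, and the photorespiration genes in each of the 21 libraries, by group (x axis). Points are libraries and bars are group means, with LT in blue, RT in red, and CK in grey. All 4 sums are lowest in LT1d in the group mean, with Rubisco activase between 14.2 and 42.6 FPKM, against 1213 to 1803.4 in RT1d libraries.

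The 42 tested members outside both subsets had 11 higher and 11 lower on Day 1, shares near the background of 20.8% higher and 23.4% lower. Counting the genes named only by KO with their subsets gave 8 higher and 38 lower of 80 Calvin cycle genes and 13 higher and 19 lower of 63 C4-type genes on Day 1. The 21 members described as another protein included 8 SCAR-like proteins, which regulate the actin cytoskeleton, under the KO of PEP carboxylase, and were left out of the enzyme counts.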

How the data were processed

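The deposited table gives an FPKM value and a whole-number count for each of 42460 genes in each library, with scaffold, description, KO, and KEGG pathways. Per the study's methods, the authors used HISAT2 for alignment to the moso bamboo genome, then StringTie and ballgown for transcript estimates, whereas the submitters' processing notes name cutadapt, FastQC, and Salmon. The tool behind the deposited counts and its treatment of multi-mapping reads are not named in these sources, so they were treated as estimated counts, and whole numbers were used as deposited. The deposited FPKM values are not scaled between libraries beyond their totals. The labels describe oligo(dT)-primed, PCR-amplified SMARTer cDNA.

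Genes at 1 FPKM or more in at least 3 of the 21 libraries (29913) were fitted in 1 model of 7 groups with TMM scaling by edgeR 4.0.16 (quasi-likelihood test, Benjamini-Hochberg adjustment over all genes, R 4.3.3). A gene was called at an adjusted p of at most 0.05 and a fold change of at least 2. Errors of log2 fold changes are standard errors. Counts of a gene at 0 in a group were bounded with 12 counts per library, which covers counting error only. Tests were tried on simulated data first. Alternatives were DESeq2 1.42.0, limma 3.58.1 on log2(FPKM + 1) and log2(FPKM + 0.1), other scalings and filters, a replicate block, the 6 libraries of a comparison alone, the low-spread groups summed, and leaving out each library. The genes named are the most abundant of each enzyme and, in each comparison and subset, the 2 largest rises and falls without overlap. Others are said to be picked after their values were seen. The members and lists were chosen with earlier results of these data known.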

Additional observations from a re-analysis of the deposited data

Results flagged for a closer look

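The effect of 4 °C differed between days for many members, by the interaction contrasts of edgeR. The members called were 76 of 155 between Day 1 and Day 15, beside 33.2% of all genes tested. Between Day 1 and Day 25 they were 85 of 155, beside 44.9%. Named genes called in the second contrast are given as the log2 fold change of LT25d against RT25d minus that of LT1d against RT1d.

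Among Calvin cycle genes the difference was 1.76 for the Rubisco small subunit PH02Gene30287, 5.72 and 7.13 for the GAPDH A genes PH02Gene02213 and PH02Gene10057, and 4.80 for SBPase PH02Gene11392. It was 3.08 for PRK PH02Gene03788, 2.12 for chloroplastic aldolase PH02Gene17733, 1.10 for ribose-5-phosphate isomerase PH02Gene08753, and -1.26 for cytosolic FBPase PH02Gene24076. The value of 6.92 for phosphoglycerate kinase PH02Gene21019 rests on LT1d libraries with 0 to 2 counts.

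Among C4-type genes the difference was -2.04 and -4.06 for the PEPCK genes PH02Gene32562 and PH02Gene35891, -3.31 for chloroplastic malate dehydrogenase PH02Gene27517, and 3.54 for NADP malate dehydrogenase PH02Gene36806. It was -1.94 for PPDK PH02Gene27627, -1.16 for NADP malic enzyme PH02Gene15331, -1.09 for NAD malic enzyme PH02Gene14884, and 2.98 and -2.19 for the alanine aminotransferase genes PH02Gene27199 and PH02Gene44929. Glutamate-glyoxylate aminotransferase PH02Gene45921 had 2.30. The value of 5.30 for NADP malic enzyme PH02Gene42339 rests on 0 to 6 counts in RT25d and fell to 0.05 without RT1d replicate 2. Under scaling by library size only, the calls of PH02Gene24076 (-0.78), PH02Gene15331 (-0.68), and PH02Gene14884 (-0.61) were lost.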

How the results depend on the processing

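Of 86 called values of named genes, 46 were called in the same direction under every alternative and none was reversed. Summing the low-spread groups lost 33, limma on log2(FPKM + 1) 10, and scaling by library size only 7. The uncalled Day 25 value of PH02Gene21019 (-0.62) turned to 0.54 without RT25d replicate 3 and was -1.11 without RT25d replicate 1. Library-size scaling moved the all-gene median to -0.53 on Day 1 and -0.37 on Day 15, and limma on log2(FPKM + 1) to -0.44 and -0.30.

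The members called higher in LT1d against RT1d were 15 at a mean FPKM of at least 5 and 17 with limma on log2(FPKM + 1). Of all genes these settings called 3492 and 3441 higher, against 6224 in the main fit. The mean filter tests fewer genes. Of the 143 tested members assigned to an enzyme, 100 reached that mean, so part of the drop may be members no longer tested. For LT15d against RT15d the numbers higher were 15, 17, and, with the low-spread groups summed, 12, with 10 lower in that fit. For LT25d against RT25d, a mean FPKM of at least 5 gave 7 higher and 3 lower, the summed fit 6 and 4, limma 8 lower, and the 6 libraries alone 9 lower. Against CK, a mean FPKM of at least 5, which tests fewer members, left 44 for LT15d and 36 for LT25d. The summed fit left fewer than the main fit for LT15d, LT25d, and RT15d. It also left far fewer members in the Day 15 minus Day 1 contrast.

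Leaving out 1 library gave 22 to 26 higher and 57 to 61 lower in LT1d against RT1d. For Day 15 it gave 22 to 26 higher and 31 to 33 lower, and for Day 25, 16 to 25 higher and 10 to 19 lower. Against CK it gave 75 to 81 for LT1d, 59 to 78 for LT15d, 47 to 64 for LT25d, 27 to 41 for RT1d, 34 to 48 for RT15d, and 45 to 62 for RT25d, and for the interaction contrasts 67 to 76 and 81 to 91.

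Same-numbered libraries did not deviate together (0 of 63 pairs above a correlation of 0.1, between -0.11 and 0.09). The labels do not give the plant, and the spread of LT15d, LT25d, and RT15d may be technical. This check therefore cannot settle whether the numbers pair samples. With the replicate number as a block, 25 members were higher and 60 lower in LT1d against RT1d. The block gave 26 higher and 33 lower for Day 15, with 20 higher and 13 lower for Day 25. Against CK the block gave 81, 67, 55, 32, 43, and 54 for LT1d, LT15d, LT25d, RT1d, RT15d, and RT25d, and for the interaction contrasts 75 and 87.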
